A study of Mus musculus with 8 samples.

Results

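The 10 genes described here carry out or control the synthesis, conjugation and transport of bile acids: Cyp7a1, Cyp8b1, Cyp27a1, Cyp7b1, Slc27a5, Baat, Slc10a1, Abcb11, Nr1h4 and Nr0b2. They were chosen by name, with earlier results of these data known. Each matched 1 of the 55487 gene identifiers in the deposited count table. The study implanted GFP-labelled MC38 colorectal cancer cells under the skin of Bmal1+/+ and Bmal1-/- mice bred from Bmal1+/- founders, removed the GFP-positive tumor cells by sorting and sequenced the RNA of the remaining stromal vascular fraction. There were 4 samples with each genotype label and 1 library per sample. The labels do not say whether each sample came from a separate mouse, so p-values measure the spread between these samples, which may be technical. The gene was deleted throughout the host and not in the implanted cells. The sex and age of these mice and the time of day of collection are not given in the sources used here. Counts were scaled to library size with TMM factors (normalized CPM), and the quasi-likelihood test of edgeR compared both labels across 14353 genes, with p-values adjusted by the Benjamini-Hochberg method over all of them. SE is the standard error of a log2 fold change, which is positive where the libraries labelled Bmal1-/- were higher.

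Bile acids are made from cholesterol in hepatocytes. The classic route starts with CYP7A1, which sets its rate, and an alternative route starts with the mitochondrial sterol hydroxylase CYP27A1 and continues with CYP7B1. CYP8B1 directs the product toward cholic acid, SLC27A5 and BAAT attach taurine or glycine, ABCB11 exports the conjugates into bile and SLC10A1 takes them up again from blood. The bile acid receptor FXR, encoded by Nr1h4, induces the corepressor SHP, encoded by Nr0b2, which represses Cyp7a1 and Cyp8b1. In mouse liver, Cyp7a1 is known for a daily rhythm and Cyp7b1 for higher levels in males than in females.

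Several facts of the libraries bear on every value that follows. Library totals ranged from 14054825 to 18449143 counts, and a detection floor of 3 counts corresponded to between 0.167 and 0.213 CPM. Bmal1 itself (Arntl) was higher in the libraries labelled Bmal1-/-, at 30.1 to 35.0 CPM against 0.960 to 2.71 CPM. Both groups are therefore called by their label throughout, and Bmal1+/+ libraries or replicates are likewise those that carry this label. Xist had 844 to 1095 CPM under the Bmal1+/+ label against 0.142 to 0.749 CPM under the other, whereas Eif2s3y, Uty, Kdm5d and Ddx3y of the Y chromosome were at 0 in all Bmal1+/+ libraries and present in each library of the other label. The sex that these transcripts mark and the genotype label cannot be told apart. A list of 20 hepatocyte markers took 12.2% to 13.0% of the counts in Bmal1+/+ libraries and 8.49% to 10.8% in the libraries labelled Bmal1-/-. Without replicate 4 of the latter, the highest share under that label was 8.74%. Albumin (Alb) was the only gene of the 20 called lower, at 6.48% to 7.08% of the counts against 1.25% to 1.93%, and Apoa1, Fga, Fgb and Fgg were higher. Without Alb, the other 19 took 5.51% to 5.90% of the counts under the Bmal1+/+ label and 6.81% to 9.54% under the other, where the highest value was replicate 4. The median log2 fold change of the 20 was 0.07. The 8 fibroblast markers took at most 0.0213% of the counts in any library, and the 8 macrophage and 7 endothelial markers at most 0.0560% and 0.0335%. Of those tested, 4 of 7 fibroblast, 6 of 8 macrophage and 5 of 7 endothelial markers were called lower under the Bmal1-/- label. None of these markers was called higher. Over all genes tested, 16.2% were called lower and 14.9% higher. The part of these markers in the results was not tested. Of 5 colon epithelium markers Cdx1 and Cdx2 were at 0 in all 8 libraries, and Cdh17 and Krt20 had at most 1 count in a library. Epcam, the only marker of that list tested, had 1.20 to 2.18 CPM under the Bmal1+/+ label and 0.136 to 0.999 CPM under the other. It was called lower (log2 fold change -1.31, edgeR adjusted p = 0.0497). Hepatocyte markers, and not those of stromal cells, thus held most of the counts on the marker lists, and the source of the hepatocyte transcripts was not tested. In bulk RNA, fewer cells of a type and less RNA per cell cannot be told apart. Replicate 4 of the libraries labelled Bmal1-/- had 3.62% of its counts on 9 acute-phase genes, against at most 0.429% in the other libraries.

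All 10 bile acid genes passed the expression filter, with at least 419 counts in every library. At an adjusted p below 0.05, Cyp7a1 was lower and Cyp7b1 and Cyp27a1 were higher in the libraries labelled Bmal1-/-, and the other 7 were not called. Of all genes tested, 31.1% were called (16.2% lower and 14.9% higher), so that 3 of 10, with 1 lower and 2 higher, is close to the background. Scaling the libraries to the hepatocyte markers shifted the median log2 fold change of all genes by -0.11 and moved the split of calls over all genes from 2322 lower and 2135 higher to 2652 lower and 1372 higher. The study called genes whose log2 fold change exceeded 1 in size at an unadjusted p under 0.05. By that rule Cyp7a1 (lower) and Cyp7b1 (higher) passed, 2 of 10 against a background of 14.1%, of which 8.71% lower and 5.41% higher. The median log2 fold change was 0.10 for the 10 genes and 0.02 for all genes tested. Without replicate 4 of the libraries labelled Bmal1-/-, the same 3 genes were called, with log2 fold changes of -2.48 for Cyp7a1, 4.83 for Cyp7b1 and 0.50 for Cyp27a1.

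**Figure D1:**
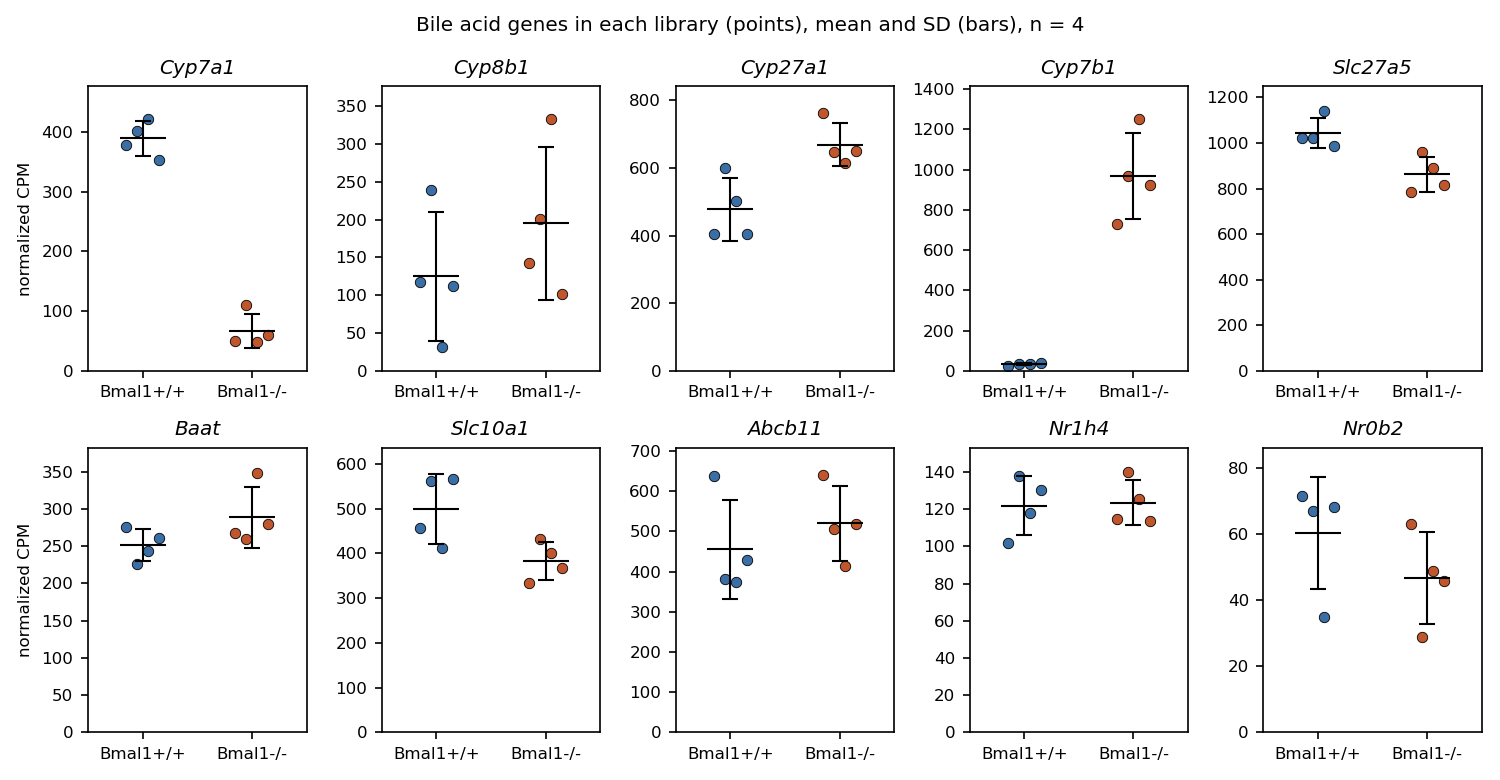
Normalized CPM (linear axes from 0) of the 10 bile acid genes, with each point 1 library and bars for the mean and SD of 4 libraries per genotype label. Cyp7a1 lies between 354 and 422 CPM in Bmal1+/+ libraries and does not exceed 110 CPM in the libraries labelled Bmal1-/-, Cyp7b1 goes from at most 39.4 to at least 729 CPM, and the other panels show smaller or overlapping differences.

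Cyp7a1 (ENSMUSG00000028240, chr4:6265612-6275633, minus strand, GRCm38), the rate-limiting enzyme of the classic route, had 379, 402, 422 and 354 CPM in Bmal1+/+ replicates 1 to 4. In the libraries labelled Bmal1-/- it had 50.2, 110, 48.7 and 60.9 CPM. Every Bmal1+/+ library lay above every library labelled Bmal1-/-, among which replicate 2 was the highest. The means were 389 ± 29.7 CPM (SD, n = 4) and 67.4 ± 28.7 CPM (SD, n = 4), a log2 fold change of -2.53 (SE 0.26, edgeR adjusted p = 0.00011), or 5.78-fold lower. Only 208 of the 14353 genes tested had a lower log2 fold change. The call was made under all 17 alternative settings, with log2 fold changes between -2.86 and -2.41.

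Cyp7b1 (ENSMUSG00000039519, chr3:18071950-18243338, minus strand), the oxysterol 7α-hydroxylase of the alternative route, went the other way. It had 26.4, 36.6, 35.7 and 39.4 CPM in Bmal1+/+ replicates 1 to 4, and 729, 968, 1249 and 922 CPM in the libraries labelled Bmal1-/-. The lowest library labelled Bmal1-/- was far above the highest Bmal1+/+ library. With means of 34.5 ± 5.61 CPM and 967 ± 215 CPM (SD, n = 4 each), the log2 fold change was 4.81 (SE 0.22, edgeR adjusted p = 9.2e-07), or 28.0-fold higher. It was exceeded by 44 of the 14353 genes tested, and it kept its call under all 17 alternatives, between 4.65 and 4.93. Because Cyp7b1 is known as a male-biased liver gene, the sex transcripts given above stand beside this value, and their part in it cannot be told apart from that of the genotype label.

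Cyp7a1 and Cyp7b1 belong to the same P450 family, and their coding sequences are shown around the longest run of bases that both share, to show how far reads of these family members can be told apart. Capitals mark the shared run of 15 bases, at positions 861 to 875 of the 1512 coding bases of Cyp7a1 and 876 to 890 of the 1524 coding bases of Cyp7b1. Both are read 5′ to 3′ from GENCODE transcripts of GRCm38.
Cyp7a1: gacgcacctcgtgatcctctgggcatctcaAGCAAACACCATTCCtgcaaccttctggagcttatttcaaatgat
Cyp7b1: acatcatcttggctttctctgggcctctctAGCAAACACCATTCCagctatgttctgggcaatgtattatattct
The bases on both sides of the run differ at many positions. Of all stretches of 31 bases in their annotated transcripts, 4 of 4169 in Cyp7a1 and 0 of 2136 in Cyp7b1 also occur in a transcript of another gene. The same count was 0 for Cyp8b1, Cyp27a1, Abcb11, Nr0b2, Nr1h4, Baat and Slc27a5, and 59 of 2194 for Slc10a1.

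**Figure D2:**
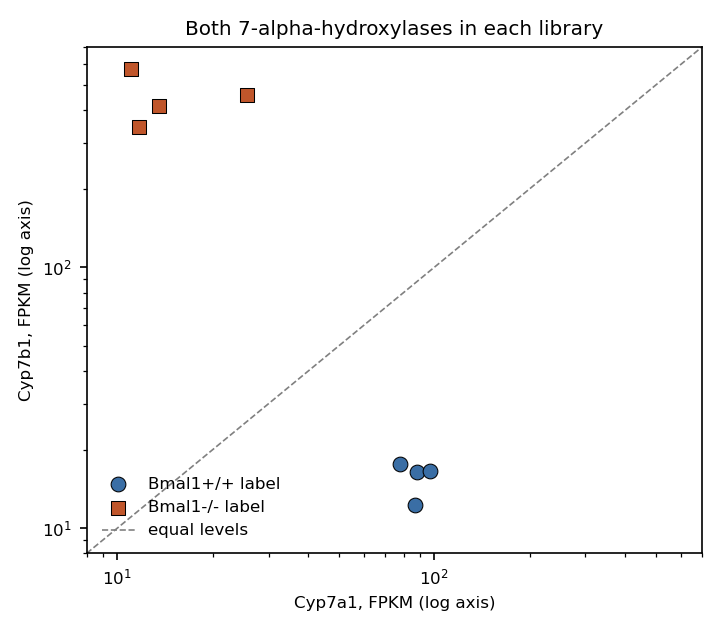
Cyp7a1 (x) and Cyp7b1 (y) in each library, as the authors' FPKM on log axes, with circles for Bmal1+/+ libraries, squares for the libraries labelled Bmal1-/- and a dashed line at equal levels. The 4 Bmal1+/+ libraries lie below the line, with Cyp7b1 at 0.142 to 0.226 of the Cyp7a1 level, and the 4 libraries labelled Bmal1-/- lie above it, at 17.9 to 52.1 times the Cyp7a1 level.

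The balance of both hydroxylases was also taken within each library, on the deposited FPKM scale, which divides by gene length. Cyp7b1 divided by Cyp7a1 was 0.142, 0.185, 0.172 and 0.226 in Bmal1+/+ replicates 1 to 4. The ratio was 29.5, 17.9, 52.1 and 30.7 in replicates 1 to 4 of the libraries labelled Bmal1-/-. The plot of both genes shows a Cyp7a1-dominated group and a Cyp7b1-dominated group with no library in between.

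Cyp27a1 (ENSMUSG00000026170, chr1:74713574-74737892, plus strand), which opens the alternative route, had 405, 599, 503 and 404 CPM in Bmal1+/+ replicates 1 to 4 and 761, 646, 615 and 650 CPM in the libraries labelled Bmal1-/-. The groups did not overlap, but Bmal1+/+ replicate 2 came close to the lowest library of the other label. The log2 fold change of 0.48 (SE 0.16, 95% interval 0.13 to 0.84) passed with edgeR at an adjusted p of 0.041, or 1.40-fold higher. Leaving out any of Bmal1+/+ replicates 1, 3 and 4 or Bmal1-/- replicates 1, 2 and 3 ended the call (adjusted p between 0.056 and 0.11).

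Cyp8b1 (ENSMUSG00000050445, chr9:121914356-121916305, minus strand), the sterol 12α-hydroxylase, varied most within a label. It had 117, 239, 31.9 and 112 CPM in Bmal1+/+ replicates 1 to 4 and 143, 201, 334 and 102 CPM in the libraries labelled Bmal1-/-. The groups overlapped, and its log2 fold change of 0.64 (95% interval -0.54 to 1.82, edgeR adjusted p = 0.39) covers changes in both directions. Without Bmal1+/+ replicate 3 the log2 fold change was 0.32, without Bmal1+/+ replicate 2 it was 1.16, and without replicate 3 of the libraries labelled Bmal1-/- it was 0.24.

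The conjugating enzymes differed little. Slc27a5 (ENSMUSG00000030382, chr7:12988346-12998192, minus strand), the bile acyl-CoA synthetase, had 1022, 1024, 1140.0 and 987 CPM in Bmal1+/+ replicates 1 to 4 and 784, 959, 888 and 818 CPM in the libraries labelled Bmal1-/-. The ranges did not overlap, but the log2 fold change of -0.27 (SE 0.12) missed the threshold with edgeR (adjusted p = 0.12). It was called with DESeq2 (adjusted p = 0.023) and with factors from the hepatocyte markers (adjusted p = 0.045). Groups did not overlap for 33.4% of all genes tested and for 4 of the 10 bile acid genes, namely Cyp7a1, Cyp7b1, Cyp27a1 and Slc27a5.

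Baat (ENSMUSG00000039653, chr4:49489422-49506557, minus strand), which joins the activated bile acid to its amino acid, had 276, 227, 244 and 261 CPM in Bmal1+/+ libraries and 268, 259, 348 and 280 CPM in the libraries labelled Bmal1-/-. The ranges overlapped. Its log2 fold change was 0.20 (95% interval -0.09 to 0.48, edgeR adjusted p = 0.28), and 0.080 without Bmal1-/- replicate 3.

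Of the transporters, Slc10a1 (ENSMUSG00000021135, chr12:80953183-80968705, minus strand), the sodium-dependent uptake carrier NTCP, had 457, 563, 411 and 567 CPM in Bmal1+/+ replicates 1 to 4 and 334, 433, 400 and 367 CPM in the libraries labelled Bmal1-/-. Only replicate 2 of the libraries labelled Bmal1-/- exceeded the lowest Bmal1+/+ library. The log2 fold change was -0.38 (SE 0.15, edgeR adjusted p = 0.074). It was called with DESeq2 (adjusted p = 0.034), with factors from the hepatocyte markers (adjusted p = 0.031) and without Bmal1+/+ replicate 3 (adjusted p = 0.047).

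Abcb11 (ENSMUSG00000027048, chr2:69238282-69342616, minus strand), the bile salt export pump, had 638, 381, 375 and 429 CPM in Bmal1+/+ libraries and 641, 507, 415 and 518 CPM in the libraries labelled Bmal1-/-. Replicate 1 was the highest under either label and the ranges coincided almost fully. The log2 fold change was 0.19 (95% interval -0.26 to 0.64, edgeR adjusted p = 0.51), and between 0.079 and 0.40 with each library left out. Abcb11 overlaps an annotated antisense gene and a pseudogene on the plus strand, and the strand setting of the counting is not given in the sources used here.

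Of the regulators, Nr1h4 (ENSMUSG00000047638, chr10:89454234-89533585, minus strand) was nearly level. It had 102, 138, 118 and 130 CPM in Bmal1+/+ replicates and 115, 140, 126 and 114 CPM in the libraries labelled Bmal1-/-. The ranges overlapped, and the log2 fold change of 0.02 had a 95% interval of -0.26 to 0.29 (edgeR adjusted p = 0.93), which bounds a change of FXR transcripts in either direction.

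Nr0b2 (ENSMUSG00000037583, chr4:133553376-133556536, plus strand), a target of FXR, had 71.5, 66.9, 34.9 and 68.2 CPM in Bmal1+/+ replicates and 63.1, 29.0, 48.9 and 45.7 CPM in the libraries labelled Bmal1-/-. Bmal1+/+ replicate 3 stood below the other 3 of its label, the same library in which Cyp8b1 was lowest. The log2 fold change was -0.37 (95% interval -0.96 to 0.22, edgeR adjusted p = 0.32). It was -0.56 (adjusted p = 0.091) without Bmal1+/+ replicate 3, -0.55 without Bmal1-/- replicate 1 and -0.20 without Bmal1-/- replicate 2.

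**Figure D3:**
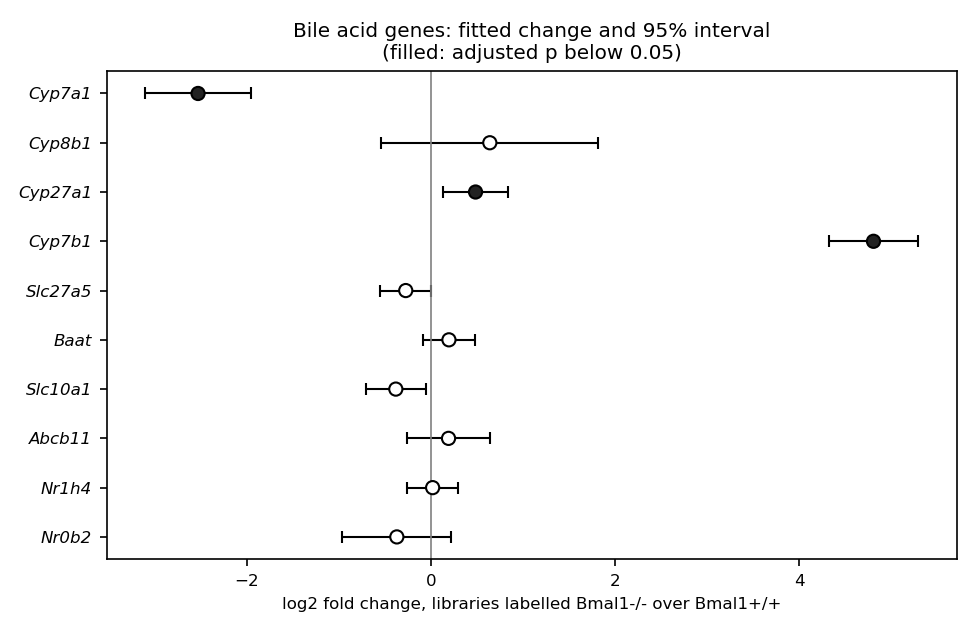
Log2 fold change of the 10 bile acid genes (points), libraries labelled Bmal1-/- over Bmal1+/+, with 95% intervals (bars) and filled points for adjusted p below 0.05. Cyp7a1 at -2.53 and Cyp7b1 at 4.81 lie far from 0, Cyp27a1 at 0.48 has an interval just above 0, and the open points lie between -0.38 and 0.64.

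The 250 bases upstream of the annotated start are printed for 3 genes from RefSeq windows of GRCm38, because Nr0b2 was the only member whose window held an E-box (CACGTG, the letters bound by the BMAL1 and CLOCK complex), Abcb11 held the nuclear receptor letters AGGTCA in its window, and Cyp27a1 was the only called member with a window. Windows were available for 6 of the 10 genes, and not for Cyp7a1, Cyp7b1, Baat or Slc27a5. Capitals mark CACGTG and TATAAA in Nr0b2 and the reverse complement of AGGTCA in Abcb11. The windows lie at chr4:133553126-133553375 (plus strand), chr2:69342617-69342866 (minus strand) and chr1:74713285-74713534 (plus strand) in the order printed. Those of Nr0b2 and Abcb11 adjoin the GENCODE gene starts given above. That of Cyp27a1 ends short of its GENCODE start at chr1:74713574.
Nr0b2: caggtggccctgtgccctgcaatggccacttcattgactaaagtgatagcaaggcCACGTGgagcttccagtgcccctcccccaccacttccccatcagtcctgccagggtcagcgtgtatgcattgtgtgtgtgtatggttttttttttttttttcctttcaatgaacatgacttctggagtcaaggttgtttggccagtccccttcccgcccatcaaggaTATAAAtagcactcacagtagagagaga
Abcb11: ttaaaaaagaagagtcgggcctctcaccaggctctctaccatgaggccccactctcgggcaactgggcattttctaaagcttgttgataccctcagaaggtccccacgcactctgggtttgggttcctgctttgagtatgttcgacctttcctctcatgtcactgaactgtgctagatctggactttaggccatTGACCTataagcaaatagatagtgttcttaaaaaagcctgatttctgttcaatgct
Cyp27a1: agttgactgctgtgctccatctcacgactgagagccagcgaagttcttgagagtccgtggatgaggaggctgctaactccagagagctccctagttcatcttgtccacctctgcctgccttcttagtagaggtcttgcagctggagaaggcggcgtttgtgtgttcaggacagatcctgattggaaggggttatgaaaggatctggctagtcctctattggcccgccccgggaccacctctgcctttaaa
Both strands were searched. The E-box of Nr0b2 starts 195 bases upstream of the start, and 6.02% of the 32851 windows searched hold CACGTG. The letters AGGTCA occur in 14.02% of windows, and among the 6 genes in those of Abcb11, Nr1h4 and Slc10a1. The D-box letters TTANGTAA, bound by DBP, occur in 2.06% of windows and in no window of the 6 genes. TATAAA occurs in 12.4%, and among the 6 genes in windows of Nr0b2, Cyp8b1 and, on the opposite strand, Slc10a1. A match is a description of letters and not a binding site.

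On the FPKM scale, levels can be compared between genes. In Bmal1+/+ libraries Slc27a5 was highest with 266 ± 21.1 FPKM (SD, n = 4), followed by Cyp27a1 with 152 ± 28.3 FPKM. Then came Slc10a1, Cyp7a1, Baat, Abcb11, Cyp8b1, Nr0b2 and Nr1h4, from 113 down to 38.05 FPKM in the mean, and each neighbouring pair among these overlapped in range. Cyp7b1 was last with 15.7 ± 2.37 FPKM, below every value of Nr1h4.

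In the libraries labelled Bmal1-/- the order opened with Cyp7b1 at 449 ± 97.1 FPKM (SD, n = 4), above every value of Slc27a5 with 224 ± 22.5 FPKM. Slc27a5 and Cyp27a1, with 217 ± 23.6 FPKM, overlapped. Cyp8b1, Baat, Slc10a1 and Abcb11 followed with means from 101 to 74.7 FPKM and overlapping neighbours, then Nr0b2 and Nr1h4 with 41.5 and 39.4 FPKM. Cyp7a1 was last with 15.5 ± 6.83 FPKM. Cyp7b1 thus had rank 10 and rank 1, and Cyp7a1 rank 4 and rank 10, in the order of the labels. These levels rest on the gene lengths of the authors, which were longer than the exonic length in the GENCODE annotation used here for 7 of the 10 genes, by the largest ratios for Slc10a1 (4375 against 2199 bases), Slc27a5 (3880 against 2438) and Baat (3001 against 1941). With the annotated lengths, Baat had rank 4 and Cyp7a1 rank 5 under the Bmal1+/+ label, and Slc10a1 stood above Cyp27a1. Under the Bmal1-/- label, Slc10a1 then had rank 4 and Cyp8b1 rank 7, and Nr1h4 stood above Nr0b2. Cyp7b1 stayed at rank 10 and rank 1, and Cyp7a1 at rank 10 under the Bmal1-/- label. The 10 genes together took 0.326% to 0.356% of the counts in Bmal1+/+ libraries and 0.380% to 0.447% in the libraries labelled Bmal1-/-. Their summed level was 3317 to 3675 CPM under the Bmal1+/+ label and 3877 to 4472 CPM under the other. Of these sums, Cyp7b1 alone had 26.4 to 39.4 CPM and 729 to 1249 CPM, so the higher share does not describe the genes as a group.

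Of the clock factors known to act on Cyp7a1, Dbp, an activator that binds the D-box, had 67.0 to 113 CPM under the Bmal1+/+ label against 3.73 to 6.97 CPM under the other. Nr1d1, which encodes REV-ERBα, had 38.4 to 52.4 CPM against 1.56 to 4.13 CPM. Both differences passed the test (edgeR adjusted p = 4.1e-06 and 5.4e-06). Time of day, genotype label and sex transcripts cannot be told apart here.

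The rest of the pathway was read from lists of 14 other synthesis enzymes, 15 other transporters and 14 other regulators. Of the 37 of these 43 genes that were tested, 12 were lower and 7 were higher, or 51.4%, against a background of 31.1%. Their median log2 fold change was -0.12 against 0.02 for all genes tested. The lists were chosen with earlier results of these data known, so these shares describe the lists and test nothing. Stretches of 31 bases shared with other genes were counted for the 10 bile acid genes only. How far reads of the listed genes also match related genes was therefore not examined.

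Of 13 synthesis enzymes tested, 4 were lower and 4 were higher, or 61.5% against the background of 31.1%. Cyp39a1, an oxysterol 7α-hydroxylase, fell from 55.6 to 65.3 CPM to 3.05 to 15.2 CPM (log2 fold change -2.93, SE 0.39). Akr1d1, the steroid 5β-reductase, went from 346 to 426 CPM down to 80.8 to 139 CPM (log2 fold change -1.77, SE 0.18). Their adjusted p from edgeR was 0.00050 and 0.00011. Cyp46a1, the cholesterol hydroxylase best known from neurons, was low, at 3.97 to 10.1 CPM and 0 to 1.42 CPM, and Cyp2a12 was also lower.

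The 4 enzymes called higher were Hsd3b7, Acox2, Scp2 and Cyp2c70. Hsd3b7, which follows both 7α-hydroxylases, had 120 to 228 CPM in Bmal1+/+ libraries and 305 to 638 CPM in the libraries labelled Bmal1-/- (log2 fold change 1.32, SE 0.27). Acox2 and Scp2, which act in the peroxisomal shortening of the side chain, had log2 fold changes of 1.38 and 1.93. Cyp2c70, which makes the muricholic acids of rodents, had 554 to 775 CPM and 1483 to 1614 CPM, a log2 fold change of 1.32. With edgeR, the adjusted p of these genes lay between 1.7e-05 and 0.0058. Amacr, Slc27a2, Akr1c6, Hsd17b4 and Acot8 were not called, with log2 fold changes of 0.29, 0.21, 0.49, -0.24 and -0.23. Ch25h, a cholesterol hydroxylase, had at most 6 counts in a library and was not tested.

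Of 13 genes of the transporter list tested, 5 were lower and 3 were higher, or 61.5% against the background of 31.1%. Slco1a1, an organic anion uptake carrier, had 1.26, 34.3, 58.4 and 7.02 CPM in Bmal1+/+ replicates 1 to 4 and 528, 538, 489 and 259 CPM in the libraries labelled Bmal1-/-. It was thus higher in each library labelled Bmal1-/- but spread widely within the Bmal1+/+ label (log2 fold change 4.17, SE 0.91, edgeR adjusted p = 0.0070). Its relative Slco1a4 went down, from 138 to 248 CPM to 30.6 to 99.2 CPM (log2 fold change -1.59, edgeR adjusted p = 0.0055). Slco1a1 and Slco1a4 are paralogs, and how reads that match both were counted is not given in the sources used here, so these values are uncertain to that extent. As for every gene here, the sex that the Xist and Y chromosome transcripts mark and the genotype label cannot be told apart in them.

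Abcb1a, a multidrug efflux pump, fell from 30.2 to 32.2 CPM to 0.416 to 1.19 CPM (log2 fold change -5.45, SE 0.24). Abcc4, a basolateral efflux pump, fell from 6.18 to 21.6 CPM to 1.92 to 3.25 CPM (log2 fold change -2.41, SE 0.36). Ephx1, an epoxide hydrolase kept on the transporter list, and Atp8b1 were higher, with log2 fold changes of 0.81 and 0.39. Abcc2 was lower with -0.44. Slc10a2, the apical sodium-dependent carrier known from ileum and bile duct, had 47.5 to 53.7 CPM in Bmal1+/+ libraries and 10.1, 10.5, 5.195 and 39.1 CPM in the libraries labelled Bmal1-/- (log2 fold change -1.65, edgeR adjusted p = 0.033). Leaving out Bmal1-/- replicate 4 gave a log2 fold change of -2.56 (adjusted p = 6.4e-05), and leaving out any other single library ended the call with log2 fold changes of -1.68 to -1.37 (adjusted p between 0.055 and 0.084). Of the other 4 markers of ileal enterocytes, Fabp6 and Fgf15 were at 0 in all 8 libraries, Vil1 had at most 7 counts, and Fabp2 had 26.8 to 42.5 CPM under the Bmal1+/+ label against 14.3 to 51.5 CPM under the other and was not called. Of the 8 cholangiocyte markers 5 were tested, of which 2 were lower and 2 were higher. Of all genes tested, 16.2% were lower and 14.9% higher. The summed share of the 8 was 0.0034% to 0.0049% of the counts in Bmal1+/+ libraries. In the libraries labelled Bmal1-/- it was 0.0064% to 0.015%, or at most 0.0072% without replicate 4. Slc51a and Slc51b, the basolateral exporter subunits, had at most 13 counts in a library and were not tested.

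Of 11 regulators tested, 3 were lower and none was higher, or 27.3% against the background of 31.1%. Gpbar1, a bile acid receptor of the cell surface, was at 0 in all 8 libraries, and Vdr, the vitamin D receptor, had at most 5 counts in a library. Klb, the coreceptor of FGFR4 for the ileal hormone FGF15, fell from 29.96 to 39.98 CPM to 11.6 to 25.5 CPM (log2 fold change -0.95, SE 0.22, edgeR adjusted p = 0.0099). Ppara, a fatty acid receptor, had a log2 fold change of -0.91 (adjusted p = 0.017), and Nr1i2, the xenobiotic receptor PXR, one of -0.42 (adjusted p = 0.033). Nr1i3, the xenobiotic receptor CAR, had a log2 fold change of -0.73 (adjusted p = 0.054), Fgfr4 one of 0.33 (adjusted p = 0.084), Hnf4a one of -0.21 (adjusted p = 0.31) and Nr5a2, which activates Cyp7a1 and Cyp8b1, one of -0.20 (adjusted p = 0.23). The calls of Cyp2a12, Abcc2, Atp8b1 and Nr1i2 were each lost in 5 or 6 of the 8 fits that left out a library, with log2 fold changes between -0.63 and -0.41, -0.51 and -0.37, 0.30 and 0.45, and -0.51 and -0.33 in that order.

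**Figure D4:**
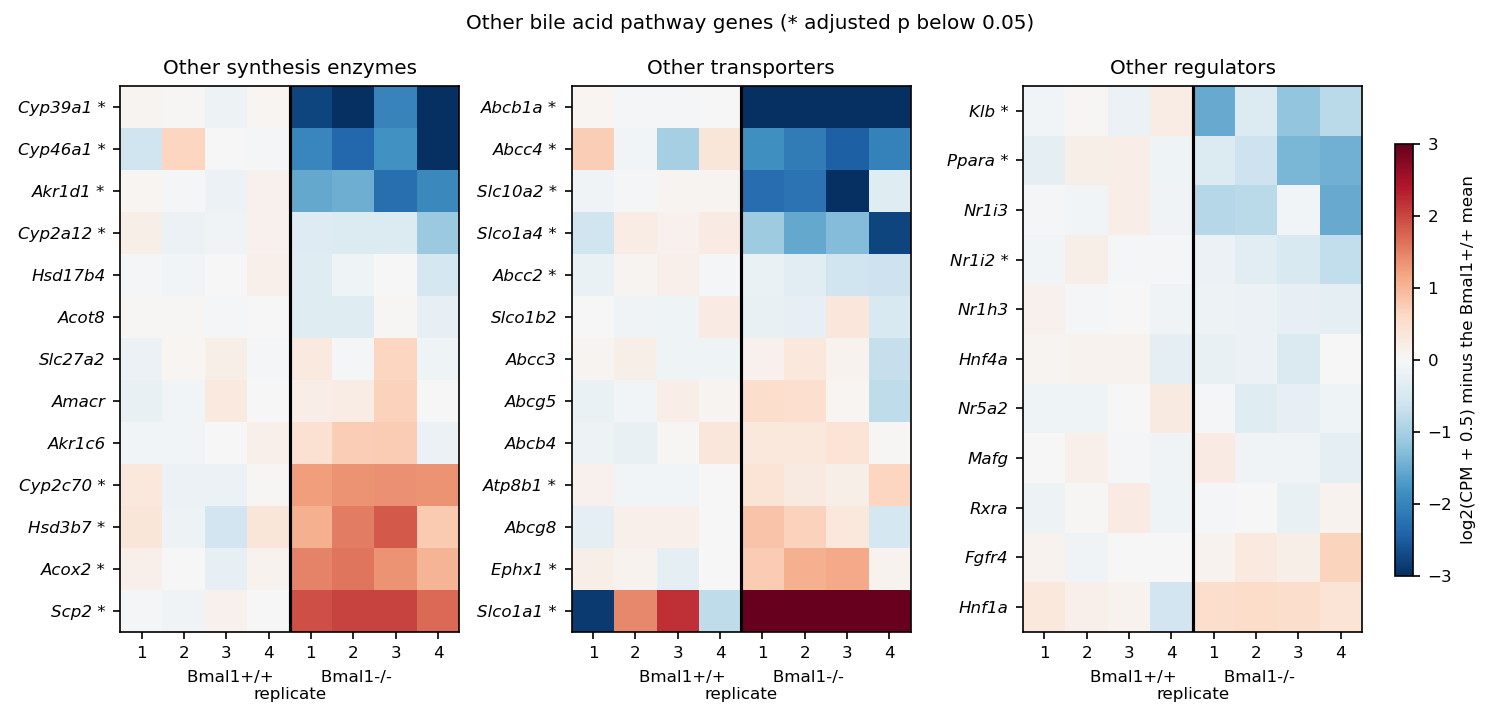
Log2(CPM + 0.5) of the 37 other pathway genes tested, minus the gene's mean over Bmal1+/+ libraries (red higher, blue lower, colors stop at 3 and -3), with libraries in columns, a black line between the genotype labels and asterisks for adjusted p below 0.05. Cyp39a1, Akr1d1, Abcb1a and Abcc4 are blue and Scp2, Acox2 and Cyp2c70 red in all 4 libraries labelled Bmal1-/-, while Slco1a1 varies within the Bmal1+/+ label.

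For each bile acid gene, the 13488 other genes averaging 1 CPM or more were ranked by how near their profiles over the 8 libraries lay. The measure was the root mean square difference of centred log2(CPM + 0.5) values. The nearest to Cyp7a1 were Alas1, the rate-limiting enzyme of heme synthesis, Slc47a1 and Mmd2, with differences of 0.15, 0.22 and 0.24 log2 units. Alas1 had mean levels of 1264 CPM in Bmal1+/+ libraries and 218 CPM in the libraries labelled Bmal1-/-. The nearest to Cyp7b1 were Lpl, which encodes lipoprotein lipase, with 0.33, the Y chromosome gene Uty with 0.34 and 4930459C07Rik with 0.43. Uty and 4930459C07Rik averaged 0 and 0.050 CPM under the Bmal1+/+ label and 14.7 and 8.54 CPM under the other. Their differences therefore depend on the added 0.5 CPM and do not show a change of like size. The fitted log2 fold change of Uty was 10.8, against 4.81 for Cyp7b1. For Cyp8b1 the nearest were Samd10 at 0.39, Gm38431 and Ppp1r9a. For the others the first of the 3 lay between 0.028 and 0.15. They were Camk2b, Pold4 and Il20rb for Cyp27a1, Gnl3, 5031425E22Rik and Cul7 for Slc27a5, and Asna1, Cct5 and Bccip for Baat. Those of the transporters were Acad9, Isoc1 and Ppp1ccb for Slc10a1 and Arhgap5, Fan1 and Poli for Abcb11. Those of the regulators were Ptdss2, Sub1 and Hnrnpl for Nr1h4 and Ramp2, Nr6a1 and Gm6039 for Nr0b2.

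**Figure D5:**
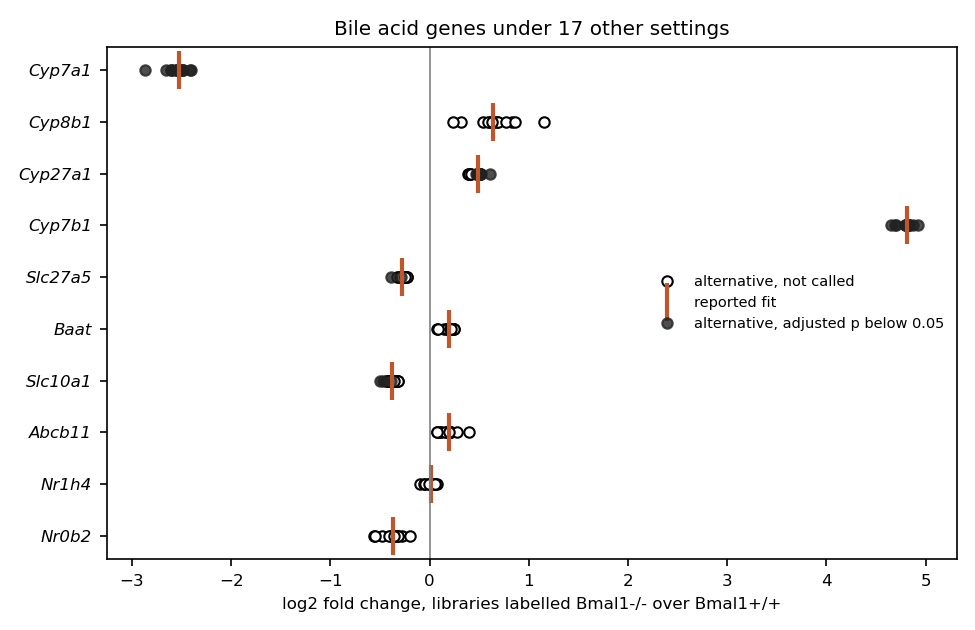
Log2 fold change of the 10 bile acid genes in the reported fit (vertical marks) and under 17 alternative settings (points, filled where adjusted p was below 0.05). The points of Cyp7a1 stay between -2.86 and -2.41 and those of Cyp7b1 between 4.65 and 4.93, all filled, whereas Cyp27a1 has filled and open points and Cyp8b1 spreads from 0.24 to 1.16.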

How the data were processed

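RNA of 8 samples was compared, 4 per genotype label, grouped by the genotype in the sample labels. Paired-end reads were aligned by the authors (HISAT2, GRCm38) and quantified with StringTie. The deposited counts are whole fragments per gene without normalization, and FPKM values were deposited beside them. The submitters' processing notes also name TopHat2 2.0.6. For 100% of 11442 genes with at least 20 counts in every library, the deposited FPKM equalled the count over library total and 1 fixed gene length, within 1%. FPKM was used only to compare levels between genes.

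Symbols and coordinates came from GENCODE annotation of GRCm38, and 99.4% of identifiers had a symbol. Log2 fold changes, normalized CPM and p-values were computed from the counts with edgeR 4.0.16 in R 4.3.3 (filterByExpr, TMM, quasi-likelihood test, prior count 0.125). Standard errors were derived from each log2 fold change and its F statistic. DESeq2 1.42.0 and limma 3.58.1 were alternatives, with 2 normalizations, library size only, 2 filters, a prior count of 2, the replicate number as a block and leaving out each library. Figures used matplotlib 3.10.9. The procedure was tested on simulated data. Library totals ranged from 14054825 to 18449143, and the floor covers counting error only.

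The members and lists were chosen with earlier results of these data known. Named genes are all members, called or undetected genes of the pathway lists, Dbp, Nr1d1, genes that check the labels, list markers and the 3 nearest profiles of each member. Pathway genes that were tested and not called are named outside this rule, after their values were seen. The hepatocyte share without Alb and the levels by annotated length were added after seeing the data. Libraries of 1 label did not duplicate one another (chi-square per degree of freedom at least 19.6).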

Additional observations from a re-analysis of the deposited data

Results flagged for a closer look

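Among 94 groups of 4 libraries examined for a library far from the others (members and pathway genes tested, each label separately), 6 had a highest or lowest library beyond Dixon's limit, where chance flags about 1 in 20. Nr0b2 had 34.9 CPM in Bmal1+/+ replicate 3, against 66.9 to 71.5 CPM in the other 3. Slc10a2 had 39.1 CPM in replicate 4 of the libraries labelled Bmal1-/-, the library with the high share of acute-phase transcripts, against 5.195 to 10.5 CPM. The submitters' title of that library is KO6. Cyp2a12 had 313 CPM in the same library, against 508 to 516 CPM. Cyp2c70 had 1483 CPM in replicate 1 of the libraries labelled Bmal1-/-, against 1592 to 1614 CPM, a small gap in a narrow range. Hnf4a had 681 CPM in Bmal1+/+ replicate 4, against 877 to 900 CPM, and Nr1i2 had 148 CPM in Bmal1+/+ replicate 2, against 125 to 128 CPM.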

How the results depend on the processing

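Of the 10 bile acid genes, Cyp7a1 and Cyp7b1 kept their calls and directions under all 17 alternatives, and Cyp8b1, Abcb11, Nr0b2, Baat and Nr1h4 were called under none. A prior count of 2 leaves the p-values as in the reported fit, so among the 17 it could not change any call. Cyp27a1 was called under 8 of 17, the prior count of 2 among them. Its log2 fold change was 0.38 with factors from the hepatocyte markers, 0.49 without a filter on low counts and 0.40 to 0.61 with each library left out, and of these 10 fits 2 kept the call, those without Bmal1+/+ replicate 2 and without Bmal1-/- replicate 4. Slc10a1 was called with DESeq2 (-0.39) and with factors from the hepatocyte markers (-0.50), and lay between -0.47 and -0.32 with each library left out. Slc27a5 was called with DESeq2 (-0.29) and with factors from the hepatocyte markers (-0.39). Leaving out Bmal1+/+ replicate 3 also called Slc10a1. So 3 members were called lower in these 2 settings, and 1 to 2 with each library left out. 1 member was called higher with factors from the hepatocyte markers and without a filter on low counts, and 1 to 2 with each library left out. Nr1h4 changed sign, to -0.098 with factors from the hepatocyte markers, to -0.0016 with at least 10 counts in every sample, and between -0.061 and 0.078 with each library left out. Abcc3 did so with library size only (0.033), without a filter (0.0043) and with libraries left out (-0.11 to 0.18), as did Rxra (-0.098 to 0.040) and Mafg (-0.16 to 0.016) with libraries left out. The cause was not tested.

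With the replicate number as a block, 1 member was called higher, and the log2 fold change of Cyp27a1 was 0.50. Replicate numbers here follow the order of the samples within a label. In the submitters' titles, replicate 4 of the libraries labelled Bmal1-/- carries a different number from replicate 4 of the other label. Libraries with the same replicate number correlated in their deviations from the group means with r between -0.092 and 0.061. For replicate 4 the r was 0.033. The numbers were not taken as pairs.

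Over all genes, 1372 were higher by adjusted p with factors from the hepatocyte markers, against 2135. By the study's criterion, 1880 were lower and 1316 higher without a filter on low counts, and 828 were lower with at least 10 counts in every sample, against 1250 lower and 776 higher. Of 19 pathway genes called, 14 kept the call and 19 the direction under every alternative that could be fitted for them.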
